A study of Mus musculus with 15 samples.

Results

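The BCL2 family was followed through 10 of its genes, chosen by name: Bcl2, Bcl2l1, Mcl1, Bcl2l11, Bbc3, Pmaip1, Bid, Bad, Bax and Bak1. All 10 were found by symbol among the 17493 genes of the deposited count tables, and all 10 had enough counts to be tested. The cells were CD8+ OT-I T cells of female mice, taken from lymph nodes and spleen, which carry a transgenic T cell receptor for an ovalbumin peptide (strain C57BL/6-Tg(TcraTcrb)1100Mjb/Crl), and ages are not given in the sources used here. RNA was measured in 15 libraries, 3 in each of 5 groups. Unstimulated cells were taken untreated at 0 h. IF 8 h and IF 22 h cells were stimulated for 8 h or 22 h with 5 ng/ml immunofilaments (IF), man-made filaments coupled to MHC loaded with a SIIT peptide and to IL-2. DC 8 h and DC 22 h cells were stimulated for the same times with 20000 dendritic cells (DC) per well, which had been grown with Flt3 ligand and loaded with SIITFEKL, a variant of the ovalbumin peptide. Stimulated wells held 50000 T cells, and viable CD8+ CD103- cells were then sorted. The arms differ in more than the carrier of the peptide, since dendritic cells also give signals of their own and the filaments carried IL-2.

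Proteins of the BCL2 family decide whether the outer mitochondrial membrane stays closed. BCL2, BCL-xL (Bcl2l1) and MCL1 keep it closed, BAX and BAK open it, and the BH3-only proteins BIM (Bcl2l11), PUMA (Bbc3), NOXA (Pmaip1), BID and BAD trigger or release that step. In T cells, BCL2 and MCL1 support naive cells, BCL-xL is a known product of costimulation, and BIM is a main mediator of death when cytokines are withdrawn or antigen responses end. Much of this control acts on protein binding, phosphorylation and turnover, which RNA counts do not show.

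Sequences upstream of the annotated starts are shown for the 3 genes that passed the test in most comparisons, Bcl2, Bcl2l1 and Bcl2l11, and for Bbc3, which did not pass in any but shares a motif with Bcl2l11. Each is the 250 bases before a RefSeq transcript start (GRCm38.p6), written 5′ to 3′ on the gene's strand, in lower case with motif matches in capitals. The windows are chr1:106714291-106714540 (minus strand, Bcl2), chr2:152831729-152831978 (minus strand, Bcl2l1), chr2:128125788-128126037 (plus strand, Bcl2l11) and chr7:16310011-16310260 (plus strand, Bbc3, the second of its 3 listed starts), and none overlaps an annotated exon.
Bcl2: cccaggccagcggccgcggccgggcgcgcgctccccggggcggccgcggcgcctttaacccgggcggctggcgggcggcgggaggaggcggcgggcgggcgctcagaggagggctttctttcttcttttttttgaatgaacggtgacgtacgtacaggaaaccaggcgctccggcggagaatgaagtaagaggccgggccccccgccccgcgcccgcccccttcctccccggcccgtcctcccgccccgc
Bcl2l1: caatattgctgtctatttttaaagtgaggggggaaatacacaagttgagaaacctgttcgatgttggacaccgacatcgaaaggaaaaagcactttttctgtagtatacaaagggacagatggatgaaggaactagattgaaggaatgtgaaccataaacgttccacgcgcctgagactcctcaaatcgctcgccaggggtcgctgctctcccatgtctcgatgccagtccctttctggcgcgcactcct
Bcl2l11: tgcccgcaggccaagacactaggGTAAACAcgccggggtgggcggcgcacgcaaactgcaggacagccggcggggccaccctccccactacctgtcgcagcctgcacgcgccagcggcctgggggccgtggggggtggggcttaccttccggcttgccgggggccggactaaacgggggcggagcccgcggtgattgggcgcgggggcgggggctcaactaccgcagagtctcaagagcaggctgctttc
Bbc3: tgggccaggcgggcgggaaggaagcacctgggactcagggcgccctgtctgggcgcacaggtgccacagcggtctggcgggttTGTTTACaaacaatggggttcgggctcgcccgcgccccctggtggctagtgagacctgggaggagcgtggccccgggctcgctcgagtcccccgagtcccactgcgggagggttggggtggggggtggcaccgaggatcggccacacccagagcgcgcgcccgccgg
The capitals mark GTAAACA, a site bound by FOXO factors. It was found 227 bases before the first listed Bcl2l11 start, on the plus strand of the gene, and not in the window of the second listed start. In the printed Bbc3 window it was found 167 bases before the start, as its reverse complement. FOXO factors are known activators of both genes. Both strands were searched for this motif and for TTCNNNGAA (the GAS element of STAT factors), TGANTCA (AP-1) and CACGTG (the E-box bound by MYC). Of 32851 such upstream windows in the table, 3.17% held GTAAACA, 7.02% TTCNNNGAA, 6.75% TGANTCA and 6.02% CACGTG. The printed Bcl2 and Bcl2l1 windows held none of the 4, which says only that these letters are absent from these bases. CACGTG was found 9 bases before the Bax start and 64 bases before the third Bbc3 start. Windows were present for 9 of the 10 genes, all except Pmaip1.

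Values are normalised read counts (CPM, counts relative to the library's TMM-scaled total), from libraries of 2892874 to 19806730 counts with 11427 to 13591 genes detected. The libraries were primed from the poly(A) tail, so a gene's counts do not separate its isoforms, such as the long and short forms of Bcl2l1 and Bcl2l11. Titles number the replicates Don1 to Don3 without spelling out the tag, and no source used here says that they came from separate animals, so p-values measure the spread between these libraries, which may be technical. IF 22 h replicates 2 and 3 stood apart, with 0.179% and 0.146% of counts in mitochondrial ribosomal RNA against 1.83% to 4.49% in the other libraries. Calls at IF 22 h, apart from those of marker genes, were also checked without them. That leaves 1 IF 22 h library, which is assumed to vary like the other groups, so a call lost there says nothing about stability and its log2 value is given beside it. The sum of 8 CD8 T cell markers was 8767 to 9484 CPM in unstimulated and 3993 to 6344 CPM in stimulated libraries. The sum of 11 genes of the handling-stress list (Fos, Jun, heat shock genes and the like) was 2108 to 3323 CPM in unstimulated and 277 to 579 CPM in stimulated libraries. It moved with every comparison against unstimulated cells below, and its part in them was not tested. In bulk RNA, fewer cells making a transcript and less transcript per cell cannot be told apart.

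Against unstimulated cells, 2 of the 10 genes passed the test after 8 h of IF, where 840 of 10831 tested genes (7.76%) did, and 3 of 10 after 8 h of DC (6.82% of all genes). After 22 h, 3 of 10 passed with IF (6.08% of all genes) and 3 of 10 with DC (7.76%). A pass is an adjusted p below 0.05 from edgeR's quasi-likelihood test with Benjamini-Hochberg adjustment over all tested genes. With only 10 genes these counts say little beside the shares of all genes. Bcl2l11 rose and Bcl2 fell in all 4 comparisons, Bcl2l1 rose with DC at both times, and Pmaip1 fell at IF 22 h. Counted by direction, 1 gene was higher and 1 lower after 8 h of IF (3.04% and 4.72% of all genes), and 2 were higher and 1 lower after 8 h of DC (2.75% and 4.07%). After 22 h, 1 was higher and 2 lower with IF (2.63% and 3.44%), and 2 were higher and 1 lower with DC (3.41% and 4.35%). The CPM values of both groups did not overlap for 3 of the 10 genes after 8 h of IF (30.6% of all genes), 6 after 8 h of DC (28.2%), 5 after 22 h of IF (30.4%) and 6 after 22 h of DC (27.1%). The 4 comparisons share the same 3 unstimulated libraries and are not independent of each other. The median log2 fold change of the 10 genes was 0.13 after 8 h and -0.32 after 22 h of IF, and -0.02 and -0.49 with DC, and that of all tested genes lay between 0.01 and 0.04. Across the 5 groups as a whole, 5 of the 10 genes differed (Bcl2, Bcl2l1, Bcl2l11, Bax and Pmaip1), where 11.8% of all tested genes did. Of these, Pmaip1 was at the threshold (adjusted p = 0.0498) and was lost in 16 of 21 alternatives, while Mcl1 (0.0545) passed in 4 of 21.

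**Figure D1:**
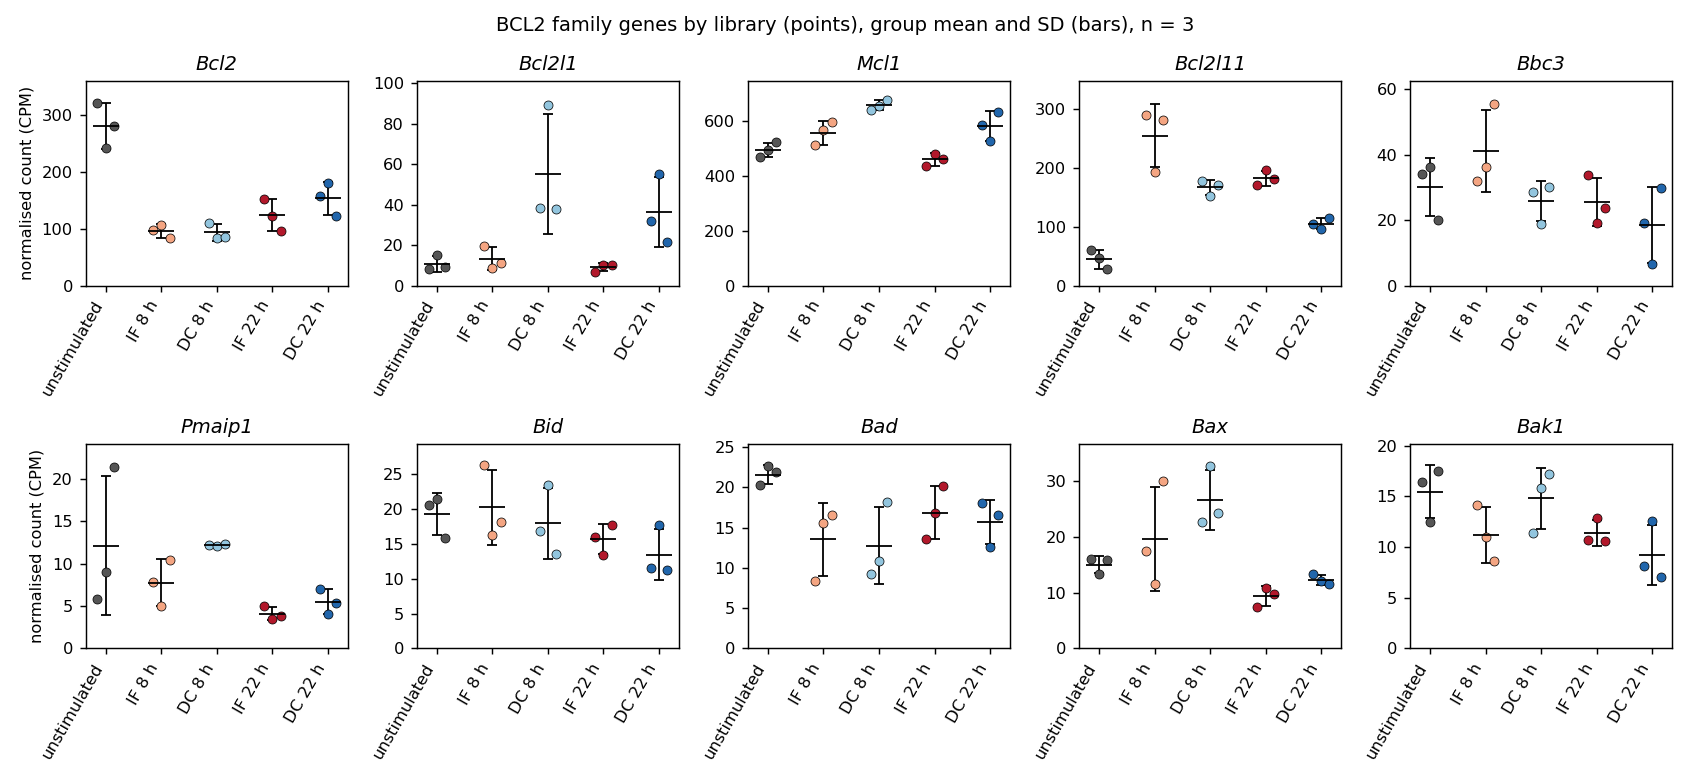
Normalised read counts (CPM, vertical axis from 0, own scale in each panel) of the 10 genes in every library, as points, with the mean and SD of each group of 3 as bars. Unstimulated libraries are highest for Bcl2 and lowest for Bcl2l11, and Bcl2l1 is high in the DC groups, from 21.7 to 89.5 CPM against 6.78 to 19.8 CPM elsewhere.

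**Figure D2:**
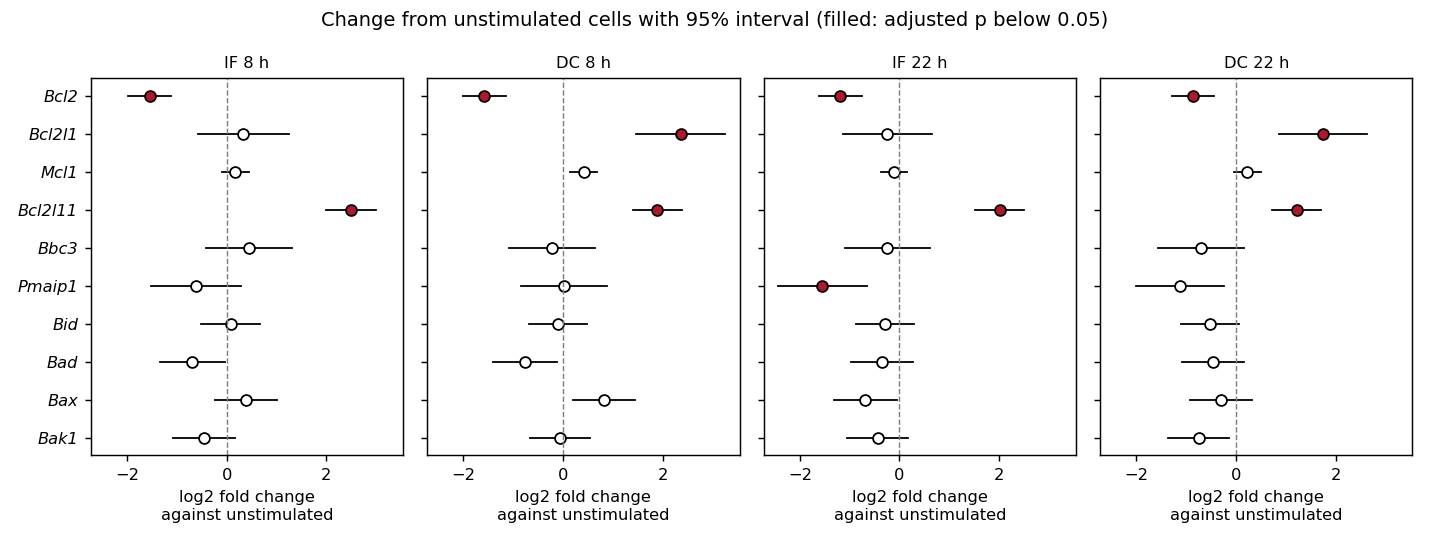
Log2 fold change of each gene against unstimulated cells (horizontal axis), with its 95% interval as a line, in the 4 stimulated groups. Filled points have an adjusted p below 0.05: Bcl2 lies to the left and Bcl2l11 to the right of 0 in every panel, and Bcl2l1 is filled only in the 2 DC panels.

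Bcl2, the founding survival gene of the family (chr1:106538178-106714274, minus strand, GRCm38), was at 320.2, 241 and 279.5 CPM in the 3 unstimulated libraries. It was at 97.9, 107 and 83.3 CPM at IF 8 h and at 110.2, 84.0 and 86.2 CPM at DC 8 h. At 22 h it was at 152, 122 and 96.4 CPM with IF and at 158, 180.2 and 123 CPM with DC. Each unstimulated library lay above all 12 stimulated ones, while the stimulated groups overlapped at each time. Bcl2 fell by 1.55 ± 0.21 (SE) on the log2 scale at IF 8 h (adjusted p = 0.000221) and by 1.58 ± 0.20 at DC 8 h (adjusted p = 0.000171). It fell by 1.18 ± 0.20 at IF 22 h (adjusted p = 0.00201) and by 0.87 ± 0.20 at DC 22 h (adjusted p = 0.0135). The call at IF 22 h was lost with 1 IF 22 h library left (log2 fold change -0.88, adjusted p = 0.198) and that at DC 22 h without unstimulated replicate 1 (0.0727) or with scaling by library size alone (0.0923). Between IF and DC the difference in Bcl2 was 0.04 at 8 h (95% interval -0.39 to 0.46) and -0.32 at 22 h (-0.74 to 0.10). From 8 h to 22 h with DC, the 3 later libraries all lay above the 3 earlier ones, and the log2 difference of 0.72 ± 0.20 did not pass (adjusted p = 0.166). An antisense transcript, D630008O14Rik, shares 558 exonic bases with Bcl2, and whether the counting used strand is not given in the sources used here.

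Bcl2l1 encodes BCL-xL, the survival protein that costimulation and cytokines are known to induce in T cells (chr2:152780668-152831728, minus strand). It was at 8.07, 15.2 and 9.08 CPM in unstimulated cells, at 19.8, 8.95 and 11.3 CPM at IF 8 h and at 38.5, 89.5 and 38.0 CPM at DC 8 h. After 22 h it was at 6.78, 10.4 and 10.1 CPM with IF and at 32.0, 55.3 and 21.7 CPM with DC. All 6 DC libraries lay above all 9 others, and the IF and unstimulated libraries overlapped. Against unstimulated cells it rose by 2.36 ± 0.43 log2 units at DC 8 h (adjusted p = 0.00272), a 5.13-fold change, and by 1.75 ± 0.42 at DC 22 h (adjusted p = 0.0166), a 3.36-fold change. With IF its log2 difference from unstimulated cells was 0.34 ± 0.43 at 8 h (95% interval -0.58 to 1.25) and -0.24 ± 0.42 at 22 h (-1.13 to 0.65), and neither passed. The DC 22 h call was lost without unstimulated replicate 1, unstimulated replicate 3 or DC 22 h replicate 2 (adjusted p = 0.0817, 0.0763 and 0.0762).

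Compared directly, IF and DC differed in 1 of the 10 genes at each time, Bcl2l1, where 0.665% of all tested genes differed at 8 h and 2.43% at 22 h (0.434% and 1.20% were lower with IF). Without overlap between IF and DC libraries were 5 of the 10 genes at 8 h (13.5% of all genes) and 4 at 22 h (19.9%). Bcl2l1 was lower with IF by a log2 fold change of -2.02 ± 0.42 at 8 h (adjusted p = 0.0356) and of -1.99 ± 0.41 at 22 h (adjusted p = 0.0167), about 0.25 of its DC level in both cases. Both calls depended on single libraries. At 8 h the adjusted p was 0.158 without IF 8 h replicate 2, 0.180 without IF 8 h replicate 3, 0.150 without DC 8 h replicate 2 and 0.0526 without DC 22 h replicate 1. It was 0.0521 with only the compared groups in the fit and 0.0514 without IF 22 h replicates 2 and 3. At 22 h it was 0.0628 without IF 22 h replicate 2, 0.0633 without IF 22 h replicate 3, 0.0510 without DC 22 h replicate 2 and 0.0545 with only the compared groups. Without IF 22 h replicates 2 and 3 the difference at 22 h was -2.42, with 1 IF library left (adjusted p = 0.319). The direction was the same in every one of the 22 alternatives at each time. Markers of cell type and stress also differed in the same comparison. At 22 h, Cd2, Cd3g and Cd3e were higher with IF among 8 CD8 T cell markers, and of 11 tested genes of the handling-stress list Jun and Junb were lower and Egr1 higher, while at 8 h Junb alone of those 2 lists passed and was lower with IF. All 5 tested B cell markers had a positive difference at 22 h, which passed for 0 of them in edgeR (2 at an unadjusted p under 0.05), and the list's sum was 25.9 to 46.0 CPM with IF and 6.41 to 21.6 CPM with DC. The NK cell list, with 1 tested gene that did not pass, summed to 11.8 to 13.4 CPM with IF and 0.664 to 6.49 CPM with DC. Their part in the Bcl2l1 difference was not tested.

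**Figure D3:**
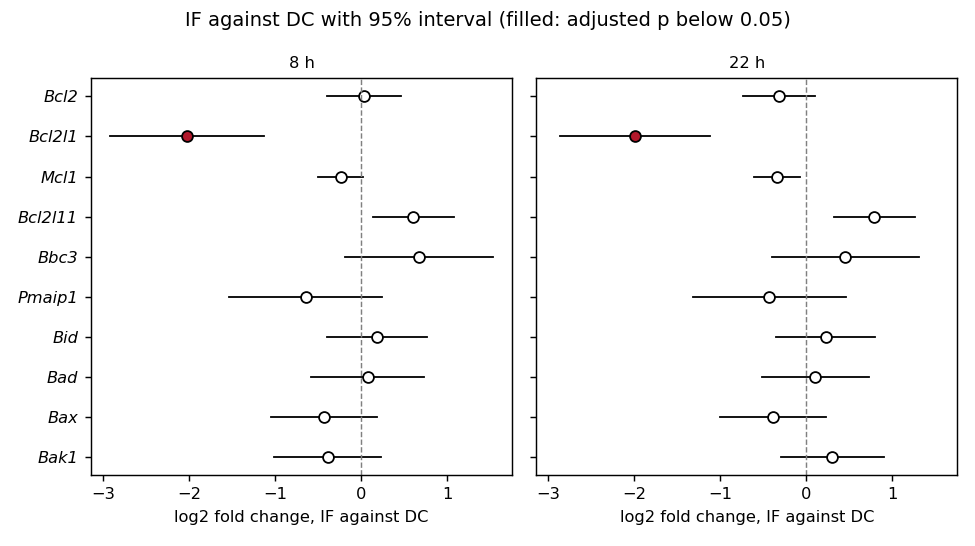
Log2 fold change of IF against DC at 8 h and 22 h (horizontal axis, negative where IF is lower) for the 10 genes, with 95% intervals as lines. Bcl2l1 is the only filled point (adjusted p below 0.05) in either panel, at -2.02 and -1.99, and Bcl2l11 lies to the right of 0 in both.

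Some dendritic cell transcripts were present in the sorted DC libraries, and Fscn1 was high where Bcl2l1 was high. Fscn1, an actin-bundling protein of mature dendritic cells, was at 168, 132 and 126 CPM at DC 8 h and at 94.8, 87.6 and 72.9 CPM at DC 22 h. It was at 0, 0.181 and 6.75 CPM in unstimulated cells, at 0.535, 0.663 and 0.268 CPM at IF 8 h and at 5.83, 21.5 and 43.8 CPM at IF 22 h. The DC libraries thus lay above all others for Fscn1 as for Bcl2l1. At IF 22 h, where Fscn1 reached 43.8 CPM in replicate 3, Bcl2l1 in that library was at 10.1 CPM, within the unstimulated range. Of 12 tested genes in the list of 15 dendritic cell markers, 4 were lower with IF than with DC at 8 h (Fscn1, Ccl22, H2-Eb1 and Cd74), where 0.434% of all genes were. At 22 h Ccl22 was lower and Itgax higher with IF, where 2.43% of all genes differed. IF and DC libraries did not overlap for 11 of the 12 at 8 h (13.5% of all genes) and for 3 at 22 h (19.9%), with list medians of -1.77 and -0.21 log2 units. Against unstimulated cells, Ccl22 was higher in all 4 stimulated groups and Fscn1 in all but IF 8 h. After 8 h of IF 6 of the 12 were lower (4.72% of all genes), after 22 h of IF 3 were (3.44%), and after 8 h of DC 0 were (4.07%). After 22 h of DC 4 of the 12 were lower (Xcr1, Cst3, Itgax and H2-Ab1), where 4.35% of all genes were, with a list median log2 fold change of -0.71. The summed list was 702 to 1566 CPM in unstimulated cells. It was 230.1 to 479.7 CPM at 8 h and 391 to 636 CPM at 22 h with IF, and 871 to 1273 CPM and 474 to 677 CPM with DC. The DC libraries thus lay above the IF libraries at 8 h, while both overlapped at 22 h. The unstimulated libraries overlapped those of DC 8 h. Zbtb46, a defining factor of conventional dendritic cells, had too few counts to be tested, as had Ccl17 and Clec9a, whose values are not given here. Near the floor, Zbtb46 was at 0 in all unstimulated and IF 8 h libraries and at 0.120 to 0.408 CPM after 22 h of IF. With DC it was at 1.17 to 2.28 CPM at 8 h and at 0.442 to 0.684 CPM at 22 h. The part of dendritic cell RNA in the Bcl2l1 difference was not tested.

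**Figure D4:**
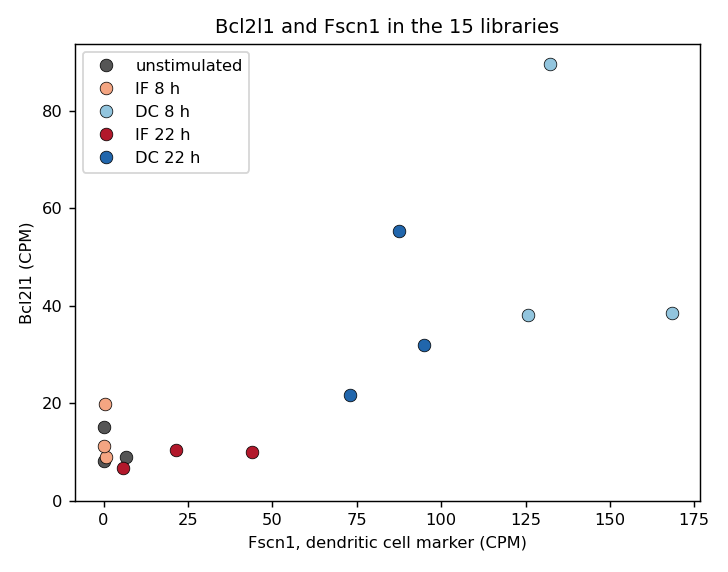
Bcl2l1 (vertical axis, CPM) against the dendritic cell marker Fscn1 (horizontal axis, CPM) in each of the 15 libraries, coloured by group. The 6 DC libraries lie to the upper right, above 70 CPM of Fscn1 and above 20 CPM of Bcl2l1, and the IF 22 h library with 43.8 CPM of Fscn1 lies with the unstimulated libraries in Bcl2l1.

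Mcl1, a short-lived survival protein needed by T cells at every stage (chr3:95658788-95663176, plus strand), varied little. It was at 471, 494 and 523 CPM in unstimulated cells, at 512, 568 and 599 CPM at IF 8 h and at 642, 656 and 679.8 CPM at DC 8 h. After 22 h it stood at 437, 482 and 465 CPM with IF and at 588, 527 and 635 CPM with DC. The DC libraries lay above the IF and unstimulated ones at each time, without overlap between compared groups. The log2 difference from unstimulated cells was 0.41 ± 0.13 at DC 8 h, which missed the threshold (adjusted p = 0.0602), and 0.23 at DC 22 h, and with IF 0.17 at 8 h and -0.11 at 22 h. At DC 8 h the gene passed with DESeq2 in place of edgeR (adjusted p = 0.00490), with library size alone (0.00253) and without DC 22 h replicate 2 (0.0337).

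Bcl2l11 encodes BIM, the BH3-only protein that binds every survival member of the family (chr2:128126038-128162547, plus strand). It was at 60.5, 46.8 and 27.7 CPM in unstimulated cells. It was at 289.7, 194 and 280.5 CPM at IF 8 h and at 178, 153 and 171 CPM at DC 8 h. The 22 h values were 170.2, 196 and 180.4 CPM with IF and 105, 96.2 and 115 CPM with DC. Every stimulated library lay above every unstimulated one, and the IF libraries lay above the DC libraries at each time. With IF, Bcl2l11 rose by 2.49 ± 0.24 log2 units at 8 h (adjusted p = 7.68e-06) and by 2.01 ± 0.23 at 22 h (6.92e-05). With DC it rose by 1.89 ± 0.23 at 8 h (0.000130) and by 1.22 ± 0.23 at 22 h (0.00348). As folds these are 5.63, 4.03, 3.70 and 2.33, and the call held in every one of the 22 alternatives in all 4 comparisons. The gene was higher with IF than with DC by 0.61 ± 0.22 log2 units at 8 h (adjusted p = 0.389) and by 0.79 ± 0.22 at 22 h (adjusted p = 0.0771), and neither difference passed. The 22 h difference passed in 3 of 22 alternatives, and its adjusted p ran from 0.00695 with no filter on low counts to 0.921 with 1 IF 22 h library left, where the difference was 0.69. From 8 h to 22 h the log2 difference was -0.48 ± 0.22 with IF (adjusted p = 0.317) and -0.67 ± 0.22 with DC (adjusted p = 0.273, and 0.0274 in the DC groups alone with the replicate block).

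Pmaip1 encodes NOXA, the BH3-only protein that targets MCL1, and it is a low gene here (chr18:66458533-66465565, plus strand). It was at 5.87, 9.04 and 21.4 CPM in unstimulated cells, at 7.85, 4.97 and 10.4 CPM at IF 8 h and at 12.2, 12.0 and 12.3 CPM at DC 8 h. Later, at 22 h, it was at 5.00, 3.47 and 3.83 CPM with IF and at 7.06, 4.09 and 5.38 CPM with DC. The unstimulated libraries were spread widely, with replicate 3 far above the other 2, and the IF 22 h libraries lay below all 3 of them. Pmaip1 fell by 1.55 ± 0.42 on the log2 scale at IF 22 h (adjusted p = 0.0397), and its difference at DC 22 h was -1.12 ± 0.42 (adjusted p = 0.118), and -0.42 without unstimulated replicate 3 (adjusted p = 0.601). The IF 22 h call was lost in 10 of 22 alternatives, among them leaving out unstimulated replicate 2 (adjusted p = 0.0598), unstimulated replicate 3 (log2 fold change -0.86, adjusted p = 0.262), IF 22 h replicate 2 (0.147) or IF 22 h replicate 3 (0.142), and with 1 IF 22 h library left it was 0.542 (log2 fold change -1.25).

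The other BH3-only genes did not pass in any comparison. Bbc3, the p53 and FOXO target that encodes PUMA (chr7:16308393-16318205, plus strand), had group means from 18.6 ± 11.7 CPM (SD, n = 3) at DC 22 h to 41.2 ± 12.5 CPM at IF 8 h, with 30.1 ± 8.80 CPM in unstimulated cells. Bid, which links death receptors to mitochondria when caspase 8 cuts it (chr6:120891930-120916853, minus strand), ran from 13.5 ± 3.64 CPM at DC 22 h to 20.3 ± 5.39 CPM at IF 8 h, with 19.3 ± 3.04 CPM in unstimulated cells. Bad, whose protein is held inactive by phosphorylation (chr19:6941861-6951899, plus strand), was at 21.6 ± 1.20 CPM in unstimulated cells, at 13.5 ± 4.48 CPM at IF 8 h and at 12.7 ± 4.80 CPM at DC 8 h. Its 3 unstimulated libraries lay above all 12 stimulated ones, and its log2 differences of -0.69 ± 0.31 at IF 8 h and -0.77 ± 0.30 at DC 8 h did not pass (adjusted p = 0.192 and 0.147). Bad shares 524 exonic bases with Gpr137 and Bid 628 with Bcl2l13, in both cases on the opposite strand, so part of their counts may belong to the partner if strand was ignored.

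Of the 2 effectors, Bax differed among the 5 groups (adjusted p = 0.0127) and passed in no comparison of 2 groups. Bax (chr7:45461697-45466898, minus strand) was at 16.0, 13.4 and 15.8 CPM in unstimulated cells, at 17.5, 11.6 and 30.0 CPM at IF 8 h and at 22.8, 32.8 and 24.4 CPM at DC 8 h. Later, at 22 h, it was at 7.38, 10.9 and 9.85 CPM with IF and at 13.3, 12.1 and 11.5 CPM with DC. The DC 8 h libraries lay above, and all 6 libraries of 22 h below, the 3 unstimulated ones. The log2 difference between 22 h and 8 h was -1.07 ± 0.30 with IF (adjusted p = 0.103) and -1.11 ± 0.29 with DC (adjusted p = 0.131, and 0.0405 in the DC groups alone with the replicate block). With IF it ran from -1.33 to -0.64 when single libraries were left out (adjusted p from 0.0382 to 0.367). With 1 IF 22 h library left it was -1.41. Bak1 (chr17:27019810-27029009, minus strand) had group means from 9.23 ± 2.97 CPM at DC 22 h to 15.5 ± 2.64 CPM in unstimulated cells, and its largest difference from them, -0.74 ± 0.29 at DC 22 h, did not pass (adjusted p = 0.134). Bax shares 192 exonic bases with Gm45808 on its own strand, and Bak1 overlaps Ggnbp1 on the opposite strand.

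Between 8 h and 22 h, 0 of the 10 genes passed in edgeR with IF, where 1.12% of all tested genes did, and 0 with DC, where 0.480% did. At an unadjusted p under 0.05 were 4 genes with IF (Mcl1, Bcl2l11, Bax and Pmaip1, all lower at 22 h), where 1622 of 10831 genes were, and 5 with DC (Bcl2 higher, and Bcl2l11, Bax, Pmaip1 and Bak1 lower), where 9.03% were. DESeq2 called Bax with IF (adjusted p = 0.0233) and Bcl2 and Bax with DC (0.0419 and 0.0194). Same-numbered DC 8 h and DC 22 h libraries deviated together, with r from 0.116 to 0.399 over 3 pairs. Replicates 1 and 3 did so across numbers too, with r of 0.117 (DC 8 h replicate 3 with DC 22 h replicate 1) and 0.107 (DC 8 h replicate 1 with DC 22 h replicate 3). Pairs of replicate 2 with another number ran from -0.307 to -0.171. In a fit of the DC groups alone with the replicate number as a block, chosen after seeing the data, 2 of the 10 genes passed in edgeR, Bcl2l11 (-0.68, adjusted p = 0.0274) and Bax (-1.11, adjusted p = 0.0405), and 166 genes passed in all, against 52 as fitted here. The same groups alone without the block gave 0 genes in all, and the block in the fit of all 15 libraries gave 0 of the 10 and 49 in all. The 8 h and 22 h libraries did not overlap for 2 of the 10 genes with IF (21.5% of all genes) and for 5 with DC (13.9%). The interaction of stimulus and time, which tests the change of the gap between both stimuli, had 0 calls among all 10831 genes in edgeR (858 at an unadjusted p under 0.05, and 40 calls by DESeq2). None of the 10 genes had an unadjusted p under 0.05 in it. For Bcl2l1 the interaction was 0.03 ± 0.59 log2 units (95% interval -1.21 to 1.28).

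The ratio of 2 genes' counts within a library does not depend on how libraries are scaled. Because the capture of each transcript's end differs, a ratio is compared between groups and not read as a ratio of molecules. The Bcl2l11 to Bcl2 ratio was 0.161 ± 0.0535 (SD, n = 3) in unstimulated cells. It was 2.71 ± 0.805 at 8 h and 1.53 ± 0.381 at 22 h with IF, and 1.81 ± 0.182 and 0.710 ± 0.204 with DC. The highest unstimulated value, 0.194, lay below the lowest stimulated value, 0.534. Neighbouring groups in the order of means overlapped from IF 8 h through DC 8 h to IF 22 h, while the DC 22 h libraries lay below these 3 groups. The Bcl2l1 to Bcl2 ratio was 0.0403 ± 0.0201 in unstimulated cells. It was 0.140 ± 0.0593 at 8 h and 0.0781 ± 0.0305 at 22 h with IF, and 0.619 ± 0.390 and 0.229 ± 0.0689 with DC. Within each time, DC libraries lay above IF libraries in this ratio. No test is given for ratios, since both genes were already tested and an exact permutation test of 3 against 3 libraries cannot go below 0.1.

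**Figure D5:**
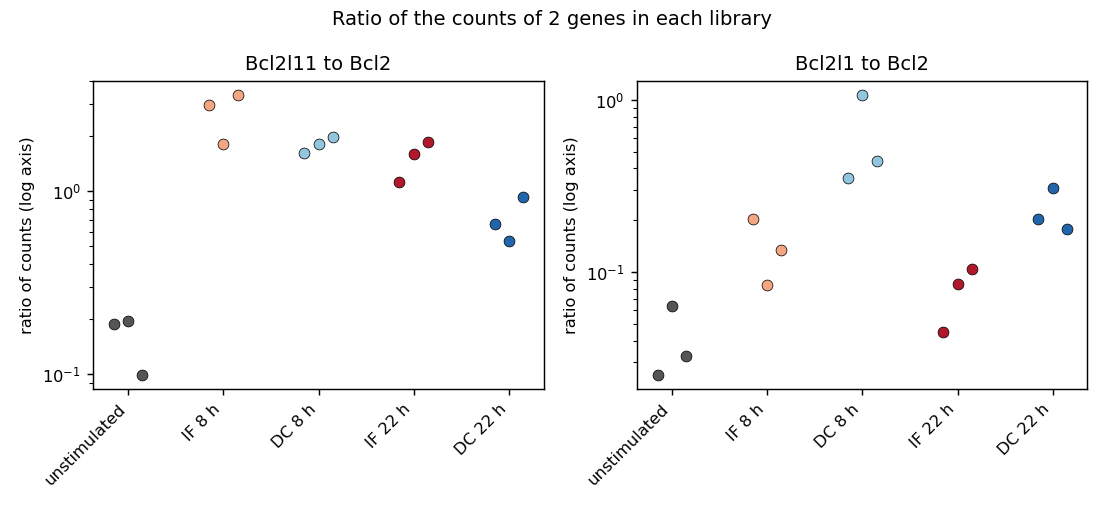
Ratio of counts of Bcl2l11 to Bcl2 (left) and of Bcl2l1 to Bcl2 (right) in each library, as points on log axes. In the left panel the unstimulated libraries, 0.0991 to 0.194, lie below all stimulated ones, and in the right panel DC lies above IF at each time.

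Transcription factors known to control these genes changed in part. Of 15 in the list, 13 were tested, all but Foxo3 and Trp73. After 8 h, 5 passed with IF (1 higher and 4 lower, where 7.76% of all genes passed) and 5 with DC (3 higher and 2 lower, where 6.82% did). After 22 h 2 passed with IF (both lower; 6.08%) and 4 with DC (1 higher, 3 lower; 7.76%). The list's median log2 fold change was 0.05 and 0.01 with IF at 8 h and 22 h and 0.29 and -0.05 with DC, beside 0.01 to 0.04 for all genes. Foxo1, a known activator of Bcl2l11 and Bbc3, fell in all 4 comparisons, where Bcl2l11 rose, and its part in that rise was not tested. It fell by 0.85 ± 0.19 at 8 h and 1.00 ± 0.19 at 22 h with IF (adjusted p = 0.0117 and 0.00434), and by 1.02 ± 0.19 and 0.87 ± 0.19 with DC (0.00326 and 0.00877). Nfkb1, an NF-kB subunit, rose by 0.74 ± 0.18 at IF 8 h (adjusted p = 0.0166) and by 0.87 ± 0.18 at DC 8 h (adjusted p = 0.00587). Atf4, the stress factor known to induce Pmaip1 and Bbc3, fell at IF 8 h (-0.74 ± 0.19), IF 22 h (-0.91 ± 0.19) and DC 22 h (-0.68 ± 0.19). E2f1, a cell cycle factor that can raise BH3-only genes, was lower at IF 8 h (-2.51 ± 0.59) and higher at DC 22 h (1.81 ± 0.48) than in unstimulated cells, and rose from 8 h to 22 h by 3.43 ± 0.58 with IF and by 2.31 ± 0.48 with DC. Between IF and DC, 1 of the 13 factors passed in edgeR, at 22 h, where 2.43% of all genes did (1.20% lower with IF). This was Stat3, which was lower with IF. Stat3 falls outside the 4 genes named by rule and was added after its values were seen, since it is the only one. At 8 h edgeR called 0 (3 of 13 at an unadjusted p under 0.05, beside 8.27% of all genes) and DESeq2 2. Stat3 was lower with IF at 22 h by a log2 fold change of -0.75 ± 0.18 (adjusted p = 0.0369), and it rose at DC 8 h by 0.81 ± 0.18 (adjusted p = 0.0120). Its part in the Bcl2l1 difference was not tested. Of these calls, those of Foxo1 and Nfkb1 at DC 8 h held in all 22 alternatives. That of Foxo1 at IF 8 h was lost in 3 of 22, among them without IF 8 h replicate 1 or 3 (highest adjusted p = 0.0546). Foxo1 was also lost with 1 library left at IF 22 h (log2 fold change -0.88), and with library size alone at DC 22 h (adjusted p = 0.0599). Nfkb1 at IF 8 h was lost without unstimulated replicate 1, unstimulated replicate 2 or IF 8 h replicate 1 (highest 0.0792). The least firm calls were those of Atf4 at DC 22 h, which held in 8 of 22 alternatives, of E2f1 between DC times, in 9 of 22 (adjusted p = 0.0568 with the replicate block in all 15 libraries and 0.0116 with the block in the DC groups alone), and of Stat3 between IF and DC, in 11 of 22. Atf4 held in 15 of 22 at IF 8 h and 20 of 22 at IF 22 h, and E2f1 in 19 of 22 at IF 8 h, 16 of 22 at DC 22 h and 20 of 22 between IF times. With 1 IF 22 h library left, Atf4 at IF 22 h was at -0.98 (adjusted p = 0.182), E2f1 between IF times at 3.09 (adjusted p = 0.367) and Stat3 between IF and DC at 22 h at -0.94 (adjusted p = 0.369), each lost as a call. Stat3 at DC 8 h was lost without unstimulated replicate 2, unstimulated replicate 3 or DC 8 h replicate 2 (highest 0.0727). Foxo1 shares 674 exonic bases with the antisense Gm20402, and Stat3 shares 72 with Stat5a on the opposite strand.

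Of the enzymes that act on the family's proteins, at most 1 passed in edgeR in any comparison of 2 groups. Of 15 kinases, phosphatases and ubiquitin enzymes, 14 were tested, and against unstimulated cells in edgeR 1 passed with DC at each time (6.82% and 7.76% of all genes) and 0 with IF (7.76% and 6.08%). With IF, 2 and 4 genes had an unadjusted p under 0.05 at 8 h and 22 h (22.9% and 20.5% of all genes), and DESeq2 called 0 and 1. At that unadjusted level were 6 of 14 in IF against DC at 22 h (15.3% of all genes; edgeR called 1, DESeq2 2) and 5 between IF times (1622 of 10831 genes; 0 called by either tool). The gene called by edgeR with DC was Pim2, a kinase that phosphorylates BAD. It was at 90.3 to 122 CPM in unstimulated cells, at 111 to 157 CPM and 88.2 to 119 CPM with IF at 8 h and 22 h, and at 189 to 249 CPM and 193 to 207 CPM with DC, so that, as for Bcl2l1, all 6 DC libraries lay above the other 9. Pim2 rose by 1.06 ± 0.18 at DC 8 h (adjusted p = 0.00161) and by 0.88 ± 0.18 at DC 22 h (adjusted p = 0.00579), and it was lower with IF than with DC at 22 h (-0.93 ± 0.18, adjusted p = 0.00913). The calls against unstimulated cells held in all 22 alternatives. That between IF and DC was lost in 3 of 22, among them without IF 22 h replicate 3 and with 1 IF 22 h library left (log2 fold change -1.17).

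Of 10 genes of the death receptor route to BID, all tested, 1 passed after 8 h of IF, 2 after 8 h of DC, 0 after 22 h of IF and 1 after 22 h of DC (edgeR), where 1 of 10 is near the 6.08% to 7.76% of all genes called. After 22 h of IF 2 had an unadjusted p under 0.05, and DESeq2 called 0. Ripk3, the kinase of necroptosis, fell by 0.75 ± 0.21 at IF 8 h, by 1.03 ± 0.20 at DC 8 h and by 1.28 ± 0.20 at DC 22 h, and was higher with IF than with DC at 22 h (0.83 ± 0.20, adjusted p = 0.0385). Fas, the death receptor, rose at DC 8 h by 1.39 ± 0.31 (adjusted p = 0.0113). Cflar, the caspase 8 inhibitor c-FLIP, fell from 8 h to 22 h with IF (-0.99 ± 0.23, adjusted p = 0.0467). Ripk3 held in all 22 alternatives against unstimulated cells at both DC times, in 15 of 22 at IF 8 h and in 10 of 22 between IF and DC, where it was 0.55 with 1 IF 22 h library left (adjusted p = 0.975). Fas was lost without unstimulated replicate 3 or DC 8 h replicate 2 (highest 0.0586), and Cflar held in 10 of 22 and was at -0.71 with 1 IF 22 h library left (adjusted p = 0.895).

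Downstream of mitochondria, 16 genes of caspase activation were tested, and in edgeR Birc3 alone passed in any of the 8 comparisons of 2 groups. This 1 of 16 is near the share of all genes at IF 8 h (7.76%) and DC 8 h (6.82%), and between DC times 0.480% of all genes passed. DESeq2 called 1 gene in each of IF against DC at 8 h, IF against DC at 22 h and IF 22 h against IF 8 h, where edgeR called 0 (2, 3 and 3 at an unadjusted p under 0.05, beside 8.27%, 15.3% and, as above, 1622 of all 10831 genes). Birc3, an inhibitor of apoptosis and NF-kB target, was at 16.8 to 22.4 CPM in unstimulated cells, 29.8 to 39.5 CPM at IF 8 h and 47.9 to 66.4 CPM at DC 8 h. It rose by 0.86 ± 0.21 at IF 8 h (adjusted p = 0.0179) and by 1.58 ± 0.20 at DC 8 h (adjusted p = 0.000172), and fell from 8 h to 22 h with DC by 1.19 ± 0.20 (adjusted p = 0.0128). The call at DC 8 h held in all 22 alternatives, that at IF 8 h in 18, lost without unstimulated replicate 1 or 3 or IF 8 h replicate 2 or 3, and that between DC times in 17, lost without replicate 1 or 2 of either DC group and with only the groups compared (adjusted p = 0.222). Of the 16 further BCL2 family genes in the list, 7 had enough counts to be tested and 0 passed in the 8 comparisons in edgeR or DESeq2, with at most 1 at an unadjusted p under 0.05 in any of them.

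The genes whose levels were most like those of 4 members over the 15 libraries were found among 6945 genes with a mean of at least 10 CPM, by Pearson's r of log2 CPM, as a description. The libraries fall into 5 groups of 3, so r mostly describes the group means. For Bcl2, Atp2a3, a calcium pump, was among them (r = 0.904). For Bcl2l1 they were Cish, a cytokine-induced inhibitor of JAK-STAT signalling (r = 0.943), and Cd83, a surface protein of mature dendritic cells and activated lymphocytes (r = 0.932). For Mcl1 they were Icam1, an adhesion molecule (r = 0.897), and Rrad, a small GTPase (r = 0.877). For Bcl2l11 they were Zc3h12d, an RNA-binding regulator (r = 0.928), and Slc39a4, a zinc transporter (r = 0.918).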

How the data were processed

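Gene counts of 15 libraries were used as the authors deposited them: whole numbers, raw and not normalized, per gene. Per the labels' protocols, the libraries came from an adapted CEL-seq protocol with barcoded oligo-dT primers and were sequenced on a NextSeq 500. BWA and mm10 are named in the submitters' processing notes, and the counter, annotation, use of strand and use of molecular identifiers are not given in the sources used here. Amplified reads need not be independent molecules.

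Genes were kept by filterByExpr (minimum count 10, minimum total 15), which left 10831 of 17493. A quasi-likelihood model with TMM factors and 5 group means was fitted to all 15 libraries with edgeR 4.0.16 in R 4.3.3 (limma 3.58.1), tested two-sided with Benjamini-Hochberg adjustment over all 10831 genes per comparison at 0.05. Fold changes use a prior count of 0.125, SE is the absolute log2 fold change divided by the square root of F, and levels are CPM on TMM-scaled totals. The script was tested on simulated counts. Of changes simulated at IF 8 h in genes that were not low, 36% of those of 2-fold and 88% of those of 4-fold were called. A gene that did not pass may therefore still have changed. Replicates differed by more than counting noise in every group. Same-numbered libraries did not pair over the series. All 3 same-numbered pairs of DC 8 h with DC 22 h correlated above 0.1 in their deviations from the group means (0.116 to 0.399). So did DC 8 h replicate 3 with DC 22 h replicate 1 (0.117) and DC 8 h replicate 1 with DC 22 h replicate 3 (0.107). Replicate numbers were taken to pair those groups in an added fit, from the data and not from the labels, though r did not set replicate 1 apart from replicate 3. Coordinates and exon overlaps come from GENCODE vM21 (GRCm38) and upstream sequences from RefSeq (GRCm38.p6).

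The 10 genes, the other lists and the alternatives were chosen with earlier results of these data known. All 10 genes are described. At most 4 genes per other list are named, those called in at least 1 of 8 comparisons of 2 groups with the smallest p. The 2 genes most like Bcl2, Bcl2l1, Mcl1 and Bcl2l11 are named by r, except 1 for Bcl2 that is not reported here. Stat3, genes that were not tested and the marker genes are named outside this rule. Alternatives were DESeq2 size factors, library size alone, no filter, DESeq2 1.42.0, only the compared groups, a replicate block (also, added after seeing the data, in the DC groups alone), each library left out, and IF 22 h replicates 2 and 3 left out together.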

Additional observations from a re-analysis of the deposited data

Results flagged for a closer look

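The difference between IF and DC in the change of Bcl2l1 from unstimulated cells passed its test at both times, with a log2 value of -2.02 at 8 h and of -1.99 at 22 h (adjusted p = 0.0356 and 0.0167, edgeR). Both used the same unstimulated libraries, which cancel in the difference, and all 6 DC libraries were higher than the 6 IF libraries.

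The DC libraries of Bax lay on opposite sides of the unstimulated ones, all 3 above them at 8 h and all 3 below them at 22 h, but neither difference from unstimulated cells passed (adjusted p = 0.106 and 0.599). The log2 difference between the times was -1.11, with an adjusted p of 0.131 in edgeR, so it did not pass. With the replicate block its adjusted p was 0.170 in all 15 libraries and 0.0405 in the DC groups alone. The margin at 22 h was narrow (13.3 CPM against a lowest unstimulated value of 13.4 CPM).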

How the results depend on the processing

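Direction was kept by every gene called in the report under all alternatives, and of 286 values of these calls under them, 259 stayed past the threshold and 27 did not. Against unstimulated cells, 5 genes passed at DC 8 h with library size alone (3 as reported), 1 at IF 22 h without IF 22 h replicates 2 and 3 (3 as reported), and 1 to 3 at DC 22 h when single libraries were left out, lowest without unstimulated replicate 1. IF against DC at 8 h gave 0 genes with only the compared groups, 0 without IF 22 h replicates 2 and 3, and 0 to 1 without single libraries (1 as reported). At 22 h it gave 2 with no filter, 3 with DESeq2, 0 with only the compared groups, 0 without IF 22 h replicates 2 and 3, and 0 to 2 without single libraries (1 as reported). IF 22 h against IF 8 h gave 1 with no filter, 1 with DESeq2 and 0 to 1 without single libraries, and DC 22 h against DC 8 h gave 2 with no filter, 2 with DESeq2 and 2 in the DC groups alone with the replicate block (0 as reported in both). The cause of these changes was not tested. For the named genes outside the family, 480 of 594 values under alternatives stayed past the threshold, 114 did not and 0 changed sign.

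Replicate numbers did not pair the libraries over the series: 4 of 30 same-numbered pairs correlated above 0.1, 3 of them those of DC 8 h with DC 22 h, with a median r of 0.00, and 8 of 15 libraries matched their own number best. With the replicate block, 2, 3, 3 and 3 genes passed at IF 8 h, DC 8 h, IF 22 h and DC 22 h, 1 in each comparison of IF with DC and 4 across the 5 groups, where Pmaip1 missed (adjusted p = 0.0520). DC 22 h against DC 8 h gave 0 members with the block in all 15 libraries.

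Counts over all genes ranged by alternative from 419 to 1299 at IF 8 h (840 as reported), 404 to 1175 at DC 8 h (739), 99 to 1101 at IF 22 h (658) and 454 to 1586 at DC 22 h (840). For IF against DC they ranged from 27 to 215 at 8 h (72) and 8 to 759 at 22 h (263), over time from 0 to 541 with IF (121) and 0 to 251 with DC (52), for the interaction from 0 to 279 (0), and across the 5 groups from 797 to 2416 (1283). Library size alone moved the median of all genes to 0.26, 0.30, 0.22 and 0.37 at IF 8 h, DC 8 h, IF 22 h and DC 22 h, and the share of called genes that were higher to 76.3%, 79.6%, 74.1% and 85.4%, from 39.2%, 40.3%, 43.3% and 43.9%. For IF against DC at 22 h that share went from 50.6% to 32.8%. Of 58 gene and comparison pairs with an unadjusted p of 0.05 or more, 70 of 1266 values under alternatives had the other sign and 2 passed. Pmaip1, Bax, Bak1, Bid, Bad and, in unstimulated and IF cells, Bcl2l1 are low genes here, and the part of depth in their results was not tested. Leaving out IF 22 h replicates 2 and 3 leaves 1 IF 22 h library, assumed to vary like the other groups.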
